A study of Homo sapiens with 12 samples.

Results

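Receptor tyrosine kinase genes were examined in maps of N6-methyladenosine (m6A), the most common internal methyl mark of messenger RNA. The 10 genes were MET, AXL, IGF1R, FGFR1, FGFR2, EGFR, PDGFRA, PDGFRB, ERBB2 and EPHA2, found by their Entrez gene numbers among 10536 gene numbers that carried a peak in any list. Of the 10 receptors, 9 had at least 1 m6A peak and AXL had none. The cells were 143B, an established human osteosarcoma line, so every value comes from a single line. They received scrambled siRNA or siRNAs against ALKBH5, the demethylase that erases m6A, for 48 h. Of 12 samples in 4 groups of 3, the 6 m6A immunoprecipitates (MeRIP-seq, 3 knockdown and 3 scrambled) were analysed and the 6 inputs were not analysed here. The series was made to find transcripts on which ALKBH5 acts.

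The replicate number also marked the method. In the protocol of the labels, replicates 1 and 3 began with poly(A) RNA and used different m6A antibodies, and replicate 2 began with total RNA and used a kit with a further antibody. Their sample annotation, in contrast, lists the same antibody for every immunoprecipitate, so the labels disagree on this point. By the protocol, and by the check of pairing given with the methods, each knockdown library was set against the scrambled library of the same number. The labels do not say whether the numbers were separate cultures, so a p-value measures only the spread between these samples.

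Receptor tyrosine kinases are cell-surface proteins that bind a growth factor outside the cell and, once paired, phosphorylate tyrosines on each other. Adaptor proteins then dock on those tyrosines and pass the signal to the RAS-MAP kinase and PI3 kinase pathways, which drive growth, survival and movement. In bone-forming cells, insulin-like growth factor, fibroblast growth factor and platelet-derived growth factor receptors are known regulators of proliferation and differentiation. Writers deposit m6A mostly in long exons and near stop codons, reader proteins bind it, and the mark is known to affect the stability and translation of a transcript.

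In replicates 1, 2 and 3 the knockdown lists held 17563, 5917 and 18360 peaks, and their scrambled partners 15139, 5677 and 18724. They gave no read counts, so the depth is unknown. Covered length, the summed exon blocks of peaks, was 5746, 1084 and 7855 kb in the knockdown and 3661, 961.2 and 7854 kb in the scrambled lists. Knockdown replicate 1 thus stood apart from its own partner, at 1.57 times the covered length, against 1.13 and 1.00 in the other pairs. ALKBH5 itself had no peak in the knockdown libraries and 1 peak each in scrambled replicates 1 and 3. Of all genes with a peak in any list, 17.1% had one in fewer knockdown than scrambled libraries. The efficiency of the knockdown was not tested. A gene or site is "called" in a library when the list has a peak there. A call reflects RNA level, methylation and depth together, and fewer cells with a transcript cannot be told apart from less of it per cell, so absence of a call is no evidence that a transcript was unmethylated.

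The receptors as a group were called equally often in both conditions. Knockdown replicates 1, 2 and 3 called 8, 5 and 9 of the 10 and the scrambled libraries 7, 6 and 9, a mean of 7.333 in each condition (SD 2.08 and 1.53, n = 3). Of all genes with a peak in any list, the knockdown libraries called 78.5, 32.0 and 86.6% and their scrambled partners 66.5, 31.4 and 88.2%. These shares leave out genes without a peak, such as AXL, so the receptor counts compare with them out of 9. The receptors had 16, 12 and 17 peaks in the knockdown and 18, 14 and 17 in the scrambled libraries. These peaks covered 7679, 2226 and 11630 nt in the knockdown and 4749, 1929 and 11209 nt in the scrambled libraries, ratios of 1.62, 1.15 and 1.04 within pairs. The receptor length was thus greater in the knockdown of every pair by nearly the ratio of the whole lists. In pairs 2 and 3 this rested on IGF1R. Its own difference there (568 and 509 nt) exceeded that of all receptors together (297 and 421 nt), so the others together were shorter in the knockdown. In pair 1 IGF1R gave 1287 of the 2930 nt. Expressed per Mb of the list's covered length, the receptor length was 1336, 2053 and 1480 nt per Mb in the knockdown and 1297, 2007 and 1427 in the scrambled libraries. On this scale the mean difference was 46.27 nt per Mb over all receptors and 199 for IGF1R alone, so it was negative over the others together.

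Individual receptors split in both directions. MET and ERBB2 were called in fewer knockdown than scrambled libraries (2 against 3 each), FGFR2 and PDGFRB in more (2 against 1 each), and the other called receptors in equal numbers. Over all genes with a peak, 26.1% were called in more knockdown than scrambled libraries and 17.1% in fewer. No receptor was called in all 3 knockdown and no scrambled library or the reverse (0.114 and 0.0285% of all genes). Among receptors called in either list of a pair, 7 of 9 were longer and 2 shorter in the knockdown of pair 1 (80.7 and 17.6% of all genes so called). In pair 2, 3 of 7 were longer and 4 shorter (52.4 and 43.0%), and in pair 3, 5 of 9 were longer and 4 shorter (48.2 and 46.7%). IGF1R, EGFR, PDGFRA and EPHA2 were called in all 6 libraries, as were 23.3% of all genes with a peak. IGF1R and EPHA2 were the receptors whose covered length was greater in the knockdown of all 3 pairs, and none was shorter in all 3. The same pattern held for 13.0% of all genes with a peak and for 34.1% of genes called in all 6 libraries, so it was common among such genes. In no receptor were the 3 knockdown values all above or all below the 3 scrambled values, a pattern that 0.313% of all genes showed. The two-sided exact permutation test of covered length, which cannot go below 0.1 with 3 libraries against 3, gave p from 0.5 to 1 for the receptors, and each was 1 after Benjamini-Hochberg adjustment over the 10536 genes. Of those genes, 0 passed an adjusted or an unadjusted threshold of 0.05, by this test or by the exact sign-flip test of the pairs. The sign-flip test gave its smallest p, 0.25, for IGF1R and EPHA2 and p of 0.5 or more for the other called receptors.

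**Figure D1:**
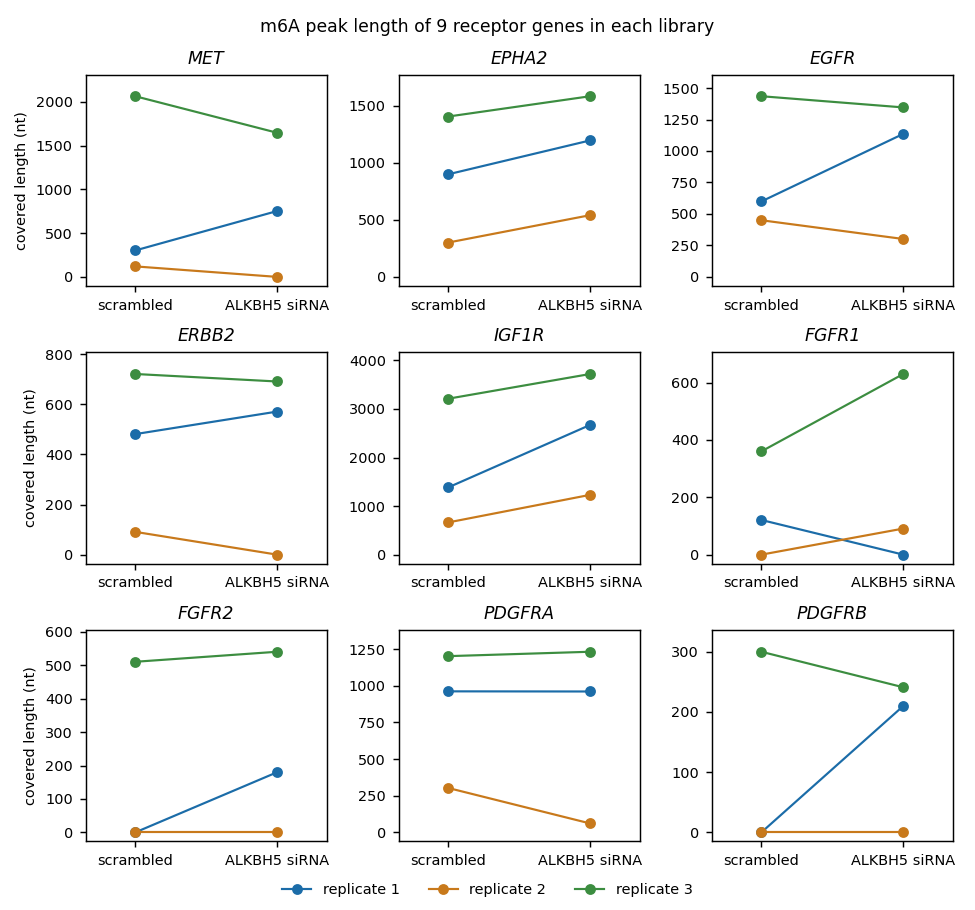
Covered m6A peak length in nt (y axis, own scale per gene) of the 9 receptor genes with a peak, in the scrambled and the ALKBH5 siRNA library of each replicate number, joined by a line. All 3 lines rise in IGF1R and EPHA2, for example from 664 to 1232 nt in replicate 2 of IGF1R, and the lines of every other gene do not all rise or all fall.

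The sites that follow are regions made by joining same-strand peaks of any library that shared 1 bp or more, numbered along the direction of transcription. The 9 called receptors had 22 sites, with 94 peaks in all lists. Of the 22, 6 were called in all 6 libraries (27.3%, against 12.7% of all 21675 regions). Another 6 were called in 1 library, a count for which no share of all regions was taken. More knockdown than scrambled libraries called 5 sites (32.6% of all regions) and fewer called 5 (23.1% of all regions), and 12 were called in equal numbers. No receptor site was called in all 3 knockdown and no scrambled library (0.129% of all regions) or the reverse (0.00923% of all regions). No site held a peak with another gene's number, and no peak of the opposite strand overlapped a site. Coordinates are hg19. Coding and untranslated exons were not told apart, as an annotation of that build was not used here.

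**Figure D2:**
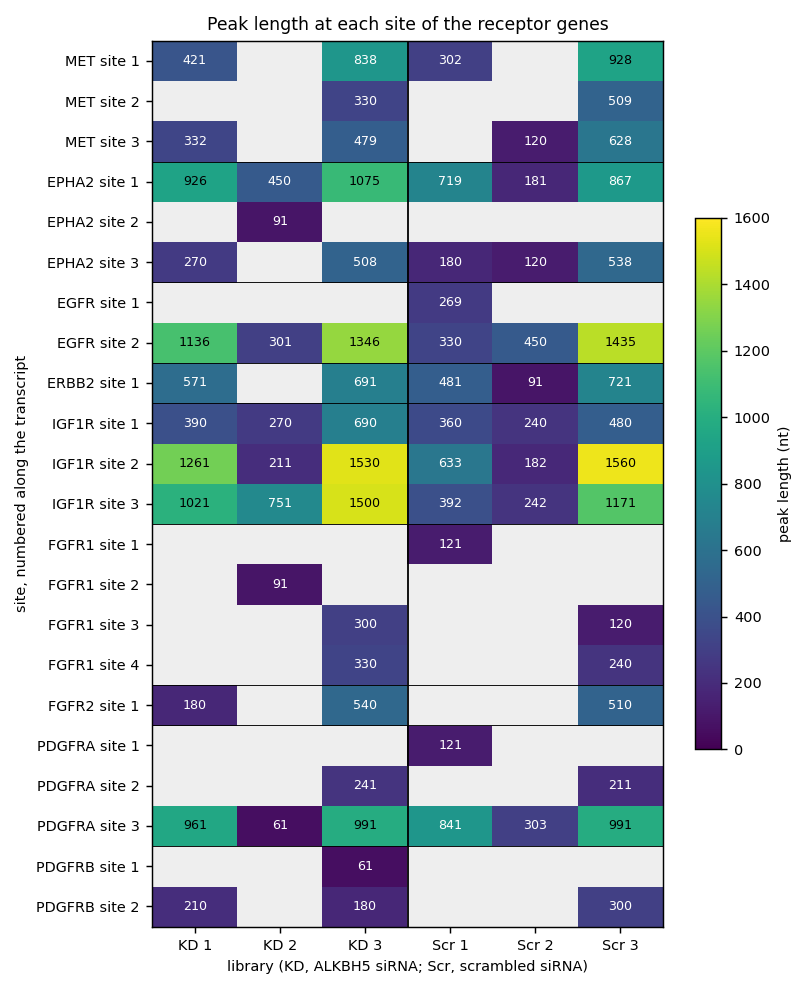
Peak length in nt at each of the 22 sites (rows, grouped by gene) in the 6 libraries (columns), with grey for no peak. The 6 sites filled in every column lie in EPHA2, EGFR, IGF1R (3 sites) and PDGFRA, and the replicate 2 columns have the most blanks, 14 in the knockdown and 13 in the scrambled list, against 5 to 10 in the other columns.

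IGF1R, the receptor for insulin-like growth factors, carried the longest m6A signal of the 10. In replicates 1, 2 and 3 its peaks (gene number 3480) covered 2672, 1232 and 3720 nt after knockdown, and 1385, 664 and 3211 nt with scrambled siRNA. The knockdown was longer in every pair, by 1.93, 1.86 and 1.16 times, yet the groups overlapped, as scrambled replicate 3 lay above knockdown replicates 1 and 2. The means were 2541 ± 1249 nt in the knockdown and 1753 ± 1313 nt in the scrambled libraries (SD, n = 3). The difference lay inside this SD, which spans replicate numbers of different method (exact permutation test, unpaired, p = 0.5). The exact sign-flip test of the pairs gave p = 0.25, its smallest value. As a share of the list, IGF1R covered 465 nt per Mb in the knockdown against 378 in pair 1, 1136 against 691 in pair 2 and 474 against 409 in pair 3. It was the only receptor above its partner in all 3 pairs on this scale too, as were 14.6% of genes called in all 6 libraries. IGF1R covered more length than 92.9 to 98.8% of the genes in each list, at ranks from 73 to 375.

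All 3 IGF1R sites were called in all 6 libraries. Site 1 (chromosome 15, 99250797 to 99434703, plus strand) had a stretch of 540 nt and, in the 3 libraries knockdown 1, knockdown 3 and scrambled 3, a second stretch that began at 99434554. Its peaks covered 390, 270 and 690 nt in the knockdown and 360, 240 and 480 nt in the scrambled libraries. Site 3 (99504701 to 99506200) covered 1021, 751 and 1500 nt against 392, 242 and 1171 nt, the largest gap of the 3 sites in every pair, though close to that of site 2 in pair 1. Site 2 (99500325 to 99501974) covered 1261, 211 and 1530 nt against 633, 182 and 1560 nt, longer in pairs 1 and 2 and shorter in pair 3. A core of 240 nt in site 1 (99251067 to 99251306) and of 181 nt in site 3 (99505661 to 99505841) was covered in every library. The stretch of 540 nt in site 1 was shorter in the knockdown of pair 1 (330 against 360 nt), where the second stretch (60 against 0 nt) made the site longer. Peaks that were separate in scrambled replicate 3 at site 3 formed 1 peak of 1500 nt in knockdown replicate 3, while knockdown replicates 1 and 2 had 2 peaks each there.

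**Figure D3:**
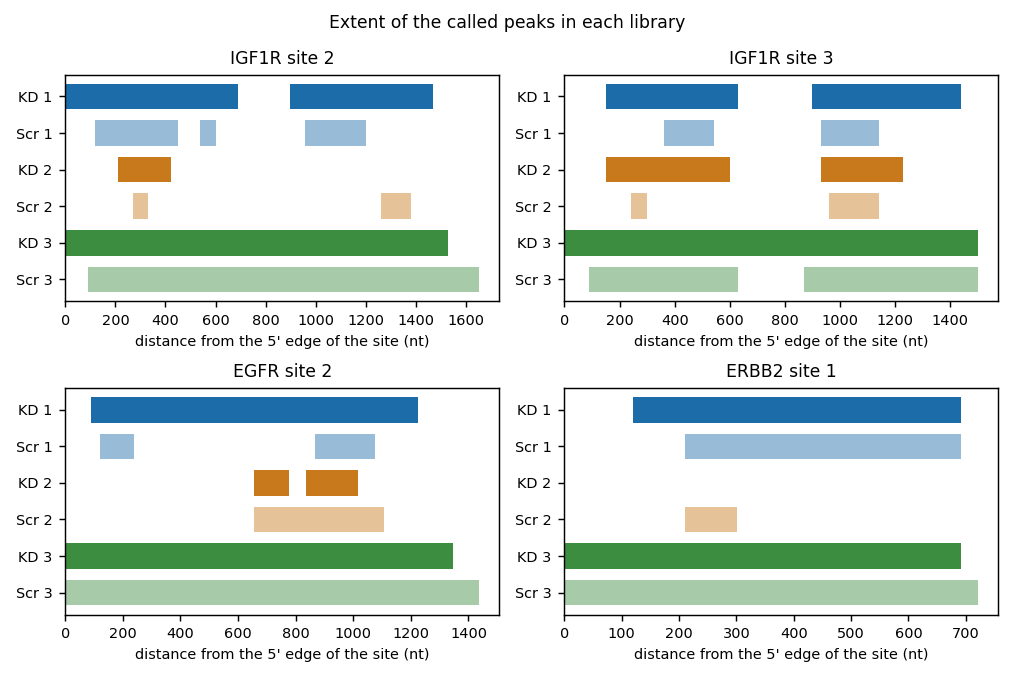
Extent of each called peak (bars) at 4 sites, as distance in nt from the site's 5′ edge, with knockdown (KD, dark) and scrambled (Scr, pale) libraries of a replicate number in adjacent rows. At IGF1R site 3 the knockdown bars total 1021, 751 and 1500 nt and the scrambled bars 392, 242 and 1171 nt. At EGFR site 2 the knockdown is longer in replicate 1 and shorter in replicates 2 and 3.

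EPHA2, a receptor for ephrin-A ligands on neighbouring cells, was the other gene longer in every pair. Its peaks (gene number 1969) covered 1196, 541 and 1583 nt in the knockdown and 899, 301 and 1405 nt in the scrambled libraries, ratios of 1.33, 1.8 and 1.13. The groups overlapped, with means of 1107 ± 527 and 868.3 ± 553 nt (SD, n = 3, exact permutation test, p = 0.6). The SD again spans replicate numbers of different method, and the exact sign-flip test of the pairs gave p = 0.25, its smallest value. The greater length in every pair did not hold as a share of the list. There the knockdown covered 208 nt per Mb against 246 in pair 1, 499 against 313 in pair 2 and 202 against 179 in pair 3. Site 1 of EPHA2 (chromosome 1, 16464829 to 16482582, minus strand) joined 4 exon stretches of 240, 68, 670 and 97 nt, the most parts of any receptor site. All 6 libraries called the stretches of 240 and 670 nt, 4 called that of 68 nt and 3 called that of 97 nt. The stretch of 240 nt at the upstream end was covered over 240, 180 and 240 nt in the knockdown and 240, 61 and 61 nt in the scrambled libraries. Site 3 (16451101 to 16451638) covered 270, 0 and 508 nt against 180, 120 and 538 nt, longer in the knockdown in pair 1 alone. Site 2 (16464620 to 16464799), in knockdown replicate 2 only, was 91 nt over 2 blocks.

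EGFR and ERBB2 belong to the epidermal growth factor receptor family, in which ERBB2 has no known ligand of its own and acts as a partner of the other members. EGFR peaks (gene number 1956) covered 1136, 301 and 1346 nt in the knockdown and 599, 450 and 1435 nt in the scrambled libraries. The knockdown was longer in replicate 1 and shorter in replicates 2 and 3, and the groups overlapped fully (927.7 ± 553 against 828 ± 531 nt, SD, n = 3, exact permutation test, p = 1). As a share of the list the difference of means turned to -55.9 nt per Mb. Nearly all of the signal lay in site 2 (chromosome 7, 55273089 to 55274523, plus strand), called in all 6 libraries with 150 nt common to all (55273956 to 55274105). There the knockdown of replicate 1 had 1 peak of 1136 nt, where its partner had peaks of 120 and 210 nt. Only scrambled replicate 1 called EGFR site 1, whose blocks of 244 and 25 nt lay between 55086815 and 55177564.

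ERBB2 (gene number 2064) had 1 site, on chromosome 17 from 37884045 to 37884765 (plus strand). It covered 571, 0 and 691 nt in the knockdown and 481, 91 and 721 nt in the scrambled libraries. The values of replicates 1 and 3 lay close together in both conditions, and only replicate 2, with a short peak in the scrambled list, differed in the call. The means were 420.7 ± 369 and 431 ± 318 nt (SD, n = 3, exact permutation test, p = 0.9). On the scale of nt per Mb, ERBB2 was the receptor below its partner in all 3 pairs, at 99.4 against 131, 0 against 94.7 and 88 against 91.8, a pattern that 6.76% of all genes with a peak shared.

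MET, the receptor for hepatocyte growth factor, gave opposite directions in the pairs of poly(A) RNA. Its peaks (gene number 4233) covered 753, 0 and 1647 nt in the knockdown and 302, 120 and 2065 nt in the scrambled libraries. The ratio was 2.49 in pair 1 and 0.798 in pair 3, and knockdown replicate 2 had no MET peak. The means of 800 ± 825 and 829 ± 1074 nt (SD, n = 3) overlapped (exact permutation test, p = 1). MET had 3 sites on the plus strand of chromosome 7. Site 1 (116339290 to 116340217) was called in replicates 1 and 3 of both conditions, over 421 and 838 nt in the knockdown and 302 and 928 nt in the scrambled libraries. Site 3 (116437753 to 116438380) covered 332, 0 and 479 nt in the knockdown and 0, 120 and 628 nt in the scrambled libraries, so its calls were exchanged between pairs 1 and 2. Site 2 (116435990 to 116436498) was called in replicate 3 alone, over 330 and 509 nt.

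PDGFRA and PDGFRB, the receptors for platelet-derived growth factors, differed in how much of them was called. PDGFRA peaks (gene number 5156) covered 961, 61 and 1232 nt in the knockdown and 962, 303 and 1202 nt in the scrambled libraries. In the poly(A) pairs the values were almost equal, with ratios of 0.999 and 1.02, and in replicate 2 the ratio was 0.201. The means were 751.3 ± 613 and 822.3 ± 465 nt (SD, n = 3, exact permutation test, p = 0.9). The main site (chromosome 4, 55156483 to 55162073, plus strand) joined stretches of 239 and 782 nt. The upstream stretch was called in all 6 libraries, with only 1 nt (55156573) common to all, and the downstream one in 5, missing in knockdown replicate 2. In pair 2 the knockdown and scrambled peaks of PDGFRA shared only 1 nt. A site at 55147837 to 55148077 was called in replicate 3 alone (241 and 211 nt), and one of 121 nt at 55095380 to 55095500 in scrambled replicate 1 alone.

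PDGFRB (gene number 5159) had short, low-ranked peaks on the minus strand of chromosome 5. They covered 210, 0 and 241 nt in the knockdown and 0, 0 and 300 nt in the scrambled libraries. The total RNA libraries of replicate 2 had none in either condition. Means were 150.3 ± 131 and 100 ± 173 nt (SD, n = 3, exact permutation test, p = 1). The main site lay at 149493911 to 149494210, called in knockdown replicates 1 and 3 and scrambled replicate 3. A further peak of 61 nt (149494360 to 149494420) was in knockdown replicate 3 alone.

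The fibroblast growth factor receptors FGFR1 and FGFR2 were called in 4 and 3 libraries. FGFR1 peaks (gene number 2260, chromosome 8, minus strand) covered 0, 91 and 630 nt in the knockdown and 121, 0 and 360 nt in the scrambled libraries. Only replicate 3 called FGFR1 in both conditions, and there at the same sites, 38270899 to 38271198 (300 and 120 nt) and 38269284 to 38269613 (330 and 240 nt). The calls of scrambled replicate 1 (38325574 to 38325694) and knockdown replicate 2 (38272336 to 38273369, with blocks of 7 and 84 nt) fell elsewhere, so these libraries shared no FGFR1 site with any other. FGFR2 (gene number 2263) had 1 site, on chromosome 10 from 123238954 to 123239523 (minus strand), which covered 180, 0 and 540 nt in the knockdown and 0, 0 and 510 nt in the scrambled libraries. Neither gene separated the groups. FGFR1 averaged 240.3 ± 341 and 160.3 ± 183 nt (SD, n = 3, exact permutation test, p = 0.9). FGFR2 averaged 240 ± 275 and 170 ± 294 nt (SD, n = 3, exact permutation test, p = 0.7).

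AXL (gene number 558), a receptor of the TAM family that is bound by GAS6, had no peak in any of the 6 lists. Its ligand GAS6 had none either. MERTK, another TAM receptor, was called in 3 knockdown and 2 scrambled libraries, and the third member, TYRO3, had no peak.

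The score deposited for each peak was used only to rank peaks within a list, as a percentile on which 100 is the best score. IGF1R had the steadiest rank, with its best peak at percentiles 84.3, 88.9 and 92.6 in the knockdown lists and 90.3, 91 and 93.9 in the scrambled lists. EGFR had a wide range. Its best peak had rank 8 of 5677 peaks in scrambled replicate 2 (percentile 99.9) and rank 4118 of 5917 in knockdown replicate 2 (percentile 30.3), although both lists called the site. PDGFRA reached percentile 97.9 in knockdown replicate 1 and 36.3 in scrambled replicate 2. The best PDGFRB peaks stood at 23.8 and 11.8 in knockdown replicates 1 and 3 and 25.2 in scrambled replicate 3, among the weaker calls of their lists. FGFR1 ranged from 16.7 to 44.8, MET from 8.29 to 78.9, ERBB2 from 12.2 to 79.3, FGFR2 from 37.9 to 82.4 and EPHA2 from 47.7 to 81.6. Across all receptors and libraries with a call the median percentile of the best peak was 69.8. The best of several peaks tends to rank above a typical peak, and no such median was taken over all genes. Ranks of lists of different length show no change, so no difference between conditions is drawn from them.

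**Figure D4:**
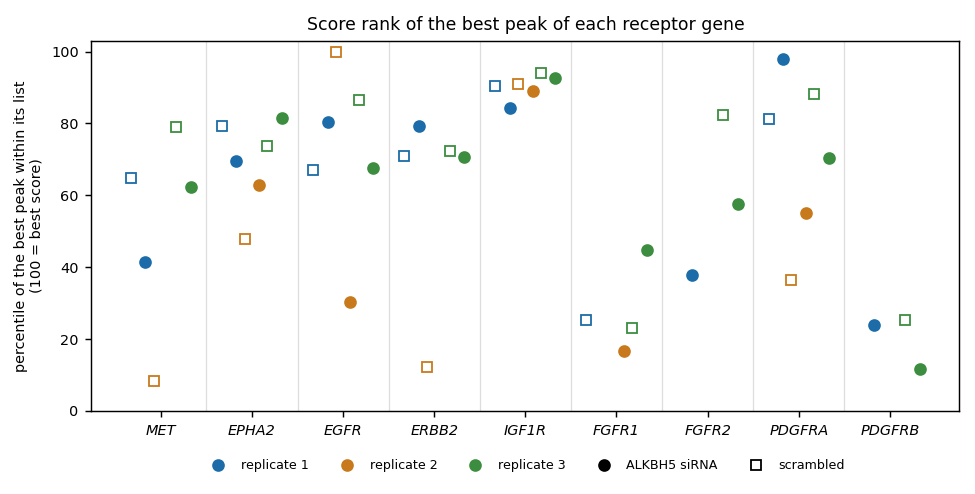
Percentile of the best peak of each receptor gene within its own list (y axis, 100 is the best score), with filled circles for ALKBH5 siRNA, open squares for scrambled siRNA and colour for the replicate number. IGF1R points sit between 84.3 and 93.9, whereas EGFR points run from 30.3 to 99.9.

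Set beside all genes called in both lists of a pair, the receptors lay inside the general spread, apart from PDGFRA in pair 2. In pair 1 the median ratio of knockdown to scrambled length was 1.59 over 6 receptors and 1.47 over 6483 genes. In pair 2 it was 1.1 over 4 receptors and 1.08 over 2531 genes, and in pair 3 it was 1.02 over 9 receptors and 1 over 8463 genes. The IGF1R ratio exceeded that of 70.8, 82.2 and 70.7% of genes in pairs 1, 2 and 3. For EPHA2 these shares were 40.6, 81 and 67.6%. The PDGFRA ratio of pair 2 exceeded 1.07% of genes, and FGFR1 in pair 3 (ratio 1.75) exceeded 92.7%. Over the 9 called receptors the median difference of mean length was 70 nt, against 40 nt over all genes with a peak. It was 120 nt over genes called in all 6 libraries, as 4 of the 9 receptors were.

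**Figure D5:**
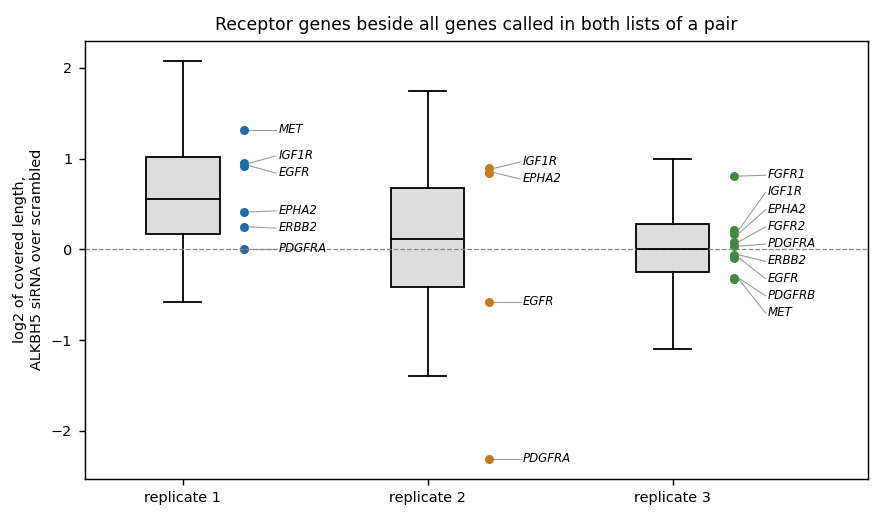
Log2 ratio of covered length, ALKBH5 siRNA over scrambled, for genes called in both lists of a replicate pair. Boxes give the median and quartiles of all such genes and whiskers the 5th and 95th percentiles. Points are receptors, with medians of 0.67, 0.13 and 0.04 beside 0.56, 0.11 and 0.00 for all genes, and PDGFRA in replicate 2 (-2.31) lies below the whisker.

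The pair of replicate 3 shared most of its receptor sequence. There 10342 nt were covered in both conditions, 82.8% of the length covered in either, against 69.9% over all genes. In pair 1 the share was 49.6% (all genes 47.9%) and in pair 2 it was 32.8% (all genes 40.1%). In pair 1 the shared length was 86.7% of the scrambled and 53.6% of the knockdown receptor length, so most of the scrambled length was also covered in the knockdown. The shares over all genes were close to these, at 83.2 and 53%. Of the sites called in either list, pair 1 had 3 of 15 in the knockdown alone and 3 in the scrambled list alone, where all regions gave 30.0 and 11.3%. Pair 2 had 2 and 3 of 11 (all regions 24.0 and 21.7%), and pair 3 had 1 and 0 of 17 (all regions 13.1 and 15.3%). All 9 sites called in both lists of pair 1 were longer in the knockdown, as were 78.0% of all regions so called. In pair 2, 4 of 6 were longer (51.0% of all regions), and in pair 3, 7 of 16 were longer and 8 shorter (47.2 and 43.3% of all regions).

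Other genes of receptor signalling came from fixed lists and are described by counts. Of 48 other receptor tyrosine kinases, 23 had a peak (47.9%). Among the receptors above it was 9 of 10, but members and lists were chosen with earlier results known, so the shares are not compared. Of the 23, 10 were called in more knockdown and 2 in fewer knockdown libraries (43.5 and 8.7%, against 26.1 and 17.1% of all genes with a peak). The largest difference was in LMTK3, a kinase of the lemur family, called in knockdown replicates 1 and 3 (510 and 453 nt) and in no scrambled library. The share of all genes with that pattern was not taken. The collagen receptor DDR1, called in all 6 libraries, covered 420, 210 and 570 nt in the knockdown and 270, 180 and 420 nt in the scrambled libraries, longer in every pair. In this list 2 of the 23 were so (8.7%), against 13.0% of all genes with a peak. In the ephrin receptor EPHA4 the lengths were 1471, 151 and 2637 nt against 725, 151 and 2548 nt. EPHB2 was longer in 2 pairs and shorter in 1, EPHA6 longer in 1 and shorter in 1, and DDR2 longer in 1 and shorter in 0.

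Among 25 ligands, 16 had a peak, with 6 called in more and 5 in fewer knockdown libraries (37.5 and 31.2%, against 26.1 and 17.1% of all genes with a peak). The genes PDGFA and PDGFB, which encode platelet-derived growth factor chains, differed in opposite directions. PDGFB covered 568, 120 and 687 nt in the knockdown and 120, 0 and 479 nt in the scrambled libraries, longer in every pair. It was the 1 of the 16 ligands that was so (6.25%), against 13.0% of all genes with a peak. PDGFA covered 510, 0 and 539 nt against 599, 61 and 628 nt, shorter in every pair, as in 1.42% of all genes with a peak. FGF5 and HBEGF, ligands of the fibroblast and epidermal growth factor receptors, covered 690, 182 and 690 nt and 628, 150 and 717 nt in the knockdown, against 211, 0 and 720 nt and 210, 90 and 717 nt. EFNA4 was longer in 0 pairs and shorter in 2, and NRG1 was longer in 2 and shorter in 1.

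Of 31 adaptors and signal relays, 24 had a peak, 5 in more and 3 in fewer knockdown libraries (20.8 and 12.5%, against 26.1 and 17.1% of all genes with a peak). In all 3 pairs 4 were longer and 1 was shorter, SOS1, an exchange factor for RAS that was named after its values were seen. Of all genes with a peak, 13.0% were longer and 1.42% shorter in all 3 pairs. The longer ones of this list were IRS1, PIK3R2, HRAS and SRC, of which SRC, a kinase that relays receptor signals, was named after its values were seen. IRS1, the docking protein that IGF1R phosphorylates, had 3473, 1528 and 4070 nt in the knockdown and 2456, 1199 and 3174 nt in the scrambled libraries. PIK3R2, a regulatory subunit of PI3 kinase, covered 151, 302 and 482 nt against 0, 0 and 422 nt, and HRAS covered 354, 236 and 442 nt against 0, 147 and 266 nt. Fewer knockdown libraries called PIK3CB, a catalytic subunit of PI3 kinase, with 301, 0 and 391 nt against 211, 61 and 421 nt. The same held for SOS2, another exchange factor for RAS, with 722, 0 and 812 nt against 723, 61 and 812 nt. FRS2 was longer in 1 pair and shorter in 1, and GAB1 was longer in 2 and shorter in 0. Of 26 inhibitors and turnover factors 23 had a peak. Of the 23, 4 were called in more and 2 in fewer knockdown libraries (17.4 and 8.7%, against 26.1 and 17.1% of all genes with a peak). In every pair 3 were longer and 0 shorter, and these 3 made up 13%, the same share as over all genes with a peak. Those 3 were PTPRJ, a receptor phosphatase, ERRFI1, an inhibitor of EGFR, and LRIG1, which promotes receptor degradation. Of the others that the rule named in this list, LRIG3 was longer in 1 pair and shorter in 2. IGF2R and GRB10 were longer in 2 pairs and shorter in 1, and FGFRL1 was longer in 1 and shorter in 0.

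Some other genes had lengths per Mb close to those of the receptors called in all 6 libraries, by Euclidean distance of log2 values over the 6 libraries. IGF1R was closest to SETD1B and TSHZ1 (distances 0.22 and 0.38), EGFR to NUP50 and BRD1 (0.23 and 0.42), EPHA2 to ANKRD10 and ARHGAP23 (0.3 and 0.32), and PDGFRA to MLLT3 and RXRA (0.54 each). SETD1B covered 2640, 1293 and 3509 nt in the knockdown and 1441, 631 and 3599 nt in the scrambled libraries.

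Peaks were also counted for markers of the cell type, although a peak is not a level of RNA. Of 12 osteosarcoma and bone markers 6 had a peak, among them RUNX2, the master regulator of osteoblasts, in 5 libraries and TWIST1 in all 6, and ALPL, COL1A2, IBSP, SP7, SPARC and VIM had none. Of 11 markers of blood, endothelial and epithelial cells 1 had a peak, CD68, a macrophage marker that is also found in other cells, in replicate 3 of both conditions.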

How the data were processed

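Peak lists of 6 MeRIP libraries were analysed. Per the submitters' processing notes, hg19 was the genome and CASAVA 1.8.2, SAMtools and TopHat2 were used. The peak caller, its cutoff and any role of the inputs are not given in the sources. Lists were separate per library. The authors deposited a score per peak, read here as a p-value because its values reach at most 0.011 (the headers say only score). A longer peak list or more reads lengthens what is called, and no depth, interval or floor could be given. Gene numbers were named through a RefSeq table (GRCh38.p14, names only), where 10500 of 10536 matched. Peaks without a gene number (7.4 to 8.6% of a list) entered regions only. Overlapping blocks of a gene were counted once. A length per Mb is divided by the covered length of its whole list. No sequence is printed, as no genome of the lists' build was used here.

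Tests were exact permutation and sign-flip tests over libraries with Benjamini-Hochberg adjustment over all genes (Python 3.11.15, numpy 2.4.6), checked on simulated lengths. Members and lists were chosen with earlier results of these data known. All 10 members are named. Of each other list, the rule named up to 4 genes with the largest difference in libraries called and up to 3 called in all 6 by symbol, and 2 genes per member as alike. SRC, SOS1, CD68 and genes without a peak were named outside the rule, after their values were seen. Same-numbered libraries are pairs, since in the protocol the number set the antibody (though the antibody field names a single one) and replicate 2 alone used total RNA, and deviations of region calls from group means correlated by 0.24, 0.31 and 0.29 within replicates 1, 2 and 3. Alternatives were keeping the best-scored 50%, equal numbers of peaks within pairs, nt per Mb, each library left out, the pairing as a block, peaks extended by 100 bp and, chosen after seeing the data, each replicate number left out.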

Additional observations from a re-analysis of the deposited data

How the results depend on the processing

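With the replicate numbers as a block, the mean differences cannot change in this balanced pairing (for example 788 nt for IGF1R, exact sign-flip test, p = 0.25, and over all receptors 1216 nt, -1.333 peaks and 0 receptors per library). The smallest p of that test is 0.25, so its 0 genes passed say nothing about stability. Equal numbers of peaks within pairs gave the same 1216 nt, and nt per Mb gave a difference of 46.27. With the best-scored 50% of each list, 14 receptor sites remained of 22 and 2 of the 6 called in all libraries, the difference of ERBB2 turned from -10.33 to 20 nt and that of PDGFRA from -71 to 70.33 nt. Extension by 100 bp gave 20 sites. EGFR turned from 99.67 nt to -55.9 nt per Mb. With 1 library or 1 replicate number left out, the receptor length differed by -1010 (without knockdown replicate 3) to 3839 nt, negative also without scrambled replicate 2 (-800.7), receptor peaks by -2.5 to 0.1667 (positive without knockdown replicate 2) and receptors called by -0.8333 to 1.167. The ranges were 198.7 to 1517 nt for IGF1R, -45.33 (without scrambled replicate 2) to 521.2 for EPHA2, -119 to 413 for EGFR, -180.3 to 200 for ERBB2, -452.5 to 589 for MET, -330.7 to 274.2 for PDGFRA, -29.5 to 150.3 for PDGFRB, -114.8 to 200.2 for FGFR1 and -80 to 240 for FGFR2. The cause of these changes was not tested. Of the 9 called receptors, only IGF1R kept its direction of covered length with the best-scored peaks, nt per Mb and each library left out. Equal numbers of peaks changed no receptor's difference. Leaving out a replicate number cannot turn a gene that was longer in all 3 pairs, as IGF1R and EPHA2 were. FGFR1 and PDGFRB had no peak among the best-scored 50%, so that setting was not run for them. The share of all genes that kept their direction was not taken. Extension was run for site counts alone. Unknown depth limits every missing call.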
